A study of Arabidopsis thaliana with 3 samples.

Results

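The C2H2 zinc finger proteins of Arabidopsis thaliana were examined in 3-day-old whole seedlings, of the mutant tdt-1 on one side and wild type on the other. A gene belonged to the set where a noncontrol probe on the arrays carried an Arabidopsis locus code and was described as coding for a zinc finger (C2H2 type) protein. This rule found 119 probes for 118 of the 25665 loci on the arrays, and it used no measured value. Seedlings of both genotypes grew on MS agar in constant light at 22 °C, and genotype is the difference that the labels give. The mutant is represented by a single line. Each of 3 arrays, biological replicates by the design text, held tdt-1 RNA in one dye and wild-type RNA in the other. Replicates 1 and 2 carried tdt-1 in Cy5, and replicate 3 carried it in Cy3. Which gene the tdt-1 mutation hits is not stated in the labels. TDT is listed in the reference table among the synonyms of DCP2, which codes for the enzyme that removes the cap of mRNAs, whose probe stood at −0.44, −0.46 and −0.96 on replicates 1, 2 and 3 as log2 of tdt-1 over wild type (limma adjusted p = 0.0629). Whether that probe lies within the lesion is not given, so it checks no label.

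In a C2H2 zinc finger, a pair of cysteines and a pair of histidines hold a zinc ion and so fold a short loop that reads DNA, RNA or another protein. Many plant members carry a conserved sequence within the finger that is rare outside plants, and a repression motif that recruits corepressors of the TOPLESS family. The family takes in short-lived repressors induced by cold, salt, drought and bright light, transcription factors of the INDETERMINATE DOMAIN (IDD) type that pattern the root and act with gibberellin signalling, small regulators of organ and hair development, and chromatin enzymes.

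Ratios below are on the log2 scale, tdt-1 over wild type, after loess normalization within each array. Loess sets the typical transcript near 0 on each array, so a change common to most transcripts leaves no trace in them. Genes were tested with limma over the 3 arrays, with Benjamini-Hochberg adjustment over all 20484 tested loci and a threshold of 0.05. The test took loci whose signal was well above background on all 3 arrays in at least 1 of the genotypes, and 82 of the 118 C2H2 loci met this. In 74 of the 82 both genotypes were well above background on every array, and none had a saturated spot. As RNA came from whole seedlings, fewer cells of a type and less RNA per cell cannot be told apart.

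Marker genes of several tissues were compared between the genotypes on each array, as a description only. All 5 leaf and photosynthesis markers and all 6 root markers were tested. The median of the photosynthesis markers was −0.46, −0.49 and −1.67 on replicates 1, 2 and 3. Of these markers 2, RBCS1B and CAB1, fell, where 5.97% of all loci fell. RBCS1A, RBCS1B and PSAF had saturated spots, RBCS1B in wild type on 2 arrays, so their ratios are inexact. None of the root markers passed the test, at means between −0.58 and −0.010, but they split by array. SCR, COBL9 and EXPA7 were below 0 on replicates 1 and 2 and above 0 on replicate 3, COBL9 at −0.85, −1.06 and 0.16. PLT1, PLT2 and SHR were lowest on replicate 3, PLT2 at −0.12, −0.015 and −0.97. Of 4 seed storage and oil body markers 2 were tested, and CRA1, a storage protein gene, stood at 1.21, −0.015 and 3.50. The wild-type signal of CRA1 was well above background on 2 arrays only. Of 4 markers of floral organs, which seedlings of this age lack, AP3, PI and SEP3 also passed the filter on dim probes, at means between −0.34 and −0.13. The part of these differences in the C2H2 results was not tested.

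Of the 82 tested C2H2 genes 9 rose in tdt-1, 3 fell and 70 did not pass the test. That is 14.6% of them, beside 13.3% of all tested loci, a share near that background. The members that rose were 11% of the set against 7.36% of all loci, and those that fell were 3.66% against 5.97%. The median ratio of the set was 0.031, against 0.024 over all loci, and it lay at 0.016, 0.045 and −0.064 on replicates 1, 2 and 3. With median centring in place of loess the set's median was −0.026, on the other side of 0, while that of all loci was 0.10. Changes were small in this processing, with mean ratios of the set between −1.03 and 1.03. Of the set 2 called members, or 2.44%, reached a 2-fold change, as did 4.13% of all loci. These sizes depended on the processing. With the scanner log ratio every called member lay further from 0. STOP2 then stood at −1.39, STZ at 1.21, RHL41 at 1.18 and AZF2 at 1.07. With no background correction STOP2 stood at −0.94 and RHL41 at 0.99. CCCH zinc finger genes had 4 of 46 tested loci past the test and C3HC4 RING finger genes 35 of 275. Whether these shares differ was not tested.

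The number of calls moved widely with the arrays and the normalization used. Without replicate 1 none of the 82 passed limma's test (18 at an unadjusted p under 0.05), and without replicate 2 none did (13 at an unadjusted p under 0.05), whereas 53 passed without replicate 3. With median centring or with replicates 1 and 2 averaged to 1 value, the calls were also 0, with 17 and 16 at an unadjusted p under 0.05. Over all 3 arrays 33 of the 82, or 40.2%, had such a p by limma, beside 35.1% of all loci. The same share of all loci was not taken in the alternatives. Each of the 12 calls held in 6 to 10 of the 14 alternatives, and the 12 called genes kept their sign in all 14. Alternatives that leave out or reweight arrays could not turn it, since their ratios shared a sign on all 3 arrays. Those that changed the filter, averaged probes or changed the variance model left the mean ratios of these genes as they were. A sign could thus turn only with no background correction, median centring or the scanner log ratio, whose values the deposited series table repeats.

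**Figure D1:**
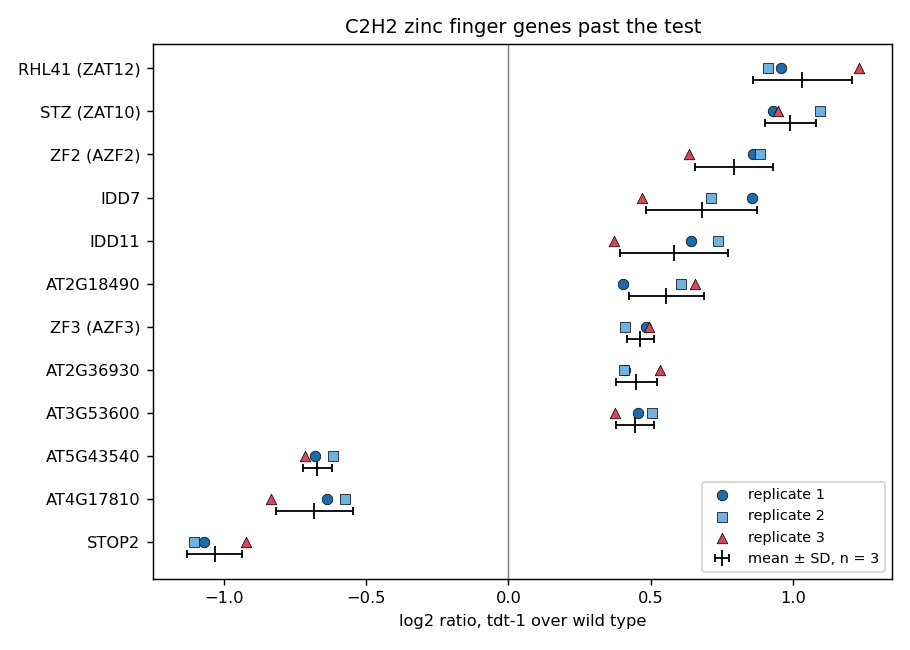
Log2 ratio of tdt-1 over wild type (x axis) of the 12 C2H2 genes past the test, with a point for each of the 3 arrays and the mean ± SD drawn below the points. The 9 genes that rose lie to the right of 0 on every array, from RHL41 at 1.03 to AT3G53600 at 0.44, and the 3 that fell lie to the left on every array.

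The ZAT and AZF genes, which code for small repressors with a pair of fingers and are induced by abiotic stress, held 5 of the 9 genes that rose. Of 16 tested members of this group 5 rose, none fell and 11 did not pass, where 7.36% of all loci rose. The group median was 0.089, at 0.12, −0.013 and 0.23 on replicates 1, 2 and 3. The group was drawn up with results for STZ already known, so its count is a description. Some loci joined it by locus code alone. Of the 9 tested loci that the files or the reference table call ZAT, AZF or DAZ, 4 rose.

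RHL41, also called ZAT12, is known for its induction by bright light, cold and oxidative stress. Its log2 ratios were 0.96, 0.91 and 1.23 on replicates 1, 2 and 3, and its log2 intensity was 10.28, 10.46 and 10.15 in tdt-1, against 9.32, 9.55 and 8.92 in wild type. The tdt-1 values lay above the wild-type values on every array and did not overlap them. RHL41 rose by 1.03 ± 0.17 (mean ± SD, n = 3), a 2.05-fold change (limma adjusted p = 0.0203).

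STZ, also called ZAT10, is a repressor of the salt, drought and cold responses. It had a log2 intensity of 9.49, 9.64 and 9.76 in tdt-1, against 8.56, 8.55 and 8.81 in wild type, with ratios of 0.93, 1.09 and 0.95. The groups did not overlap, and STZ rose by 0.99 ± 0.09, or 1.99-fold (limma adjusted p = 0.0183).

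ZF2, or AZF2, and ZF3, or AZF3, are related repressors of responses to abscisic acid and to high salt. AZF2 had ratios of 0.86, 0.88 and 0.64, with a log2 intensity of 9.03, 8.99 and 8.97 in tdt-1, against 8.17, 8.11 and 8.33 in wild type, and rose by 0.79 ± 0.14 (limma adjusted p = 0.0244). A second AZF2 probe was too dim to be tested. AZF3 rose as well, with ratios of 0.48, 0.41 and 0.50, a log2 intensity of 9.05 ± 0.059 in tdt-1 and 8.58 ± 0.091 in wild type, and a mean of 0.46 ± 0.047 (limma adjusted p = 0.0428). All 3 arrays put both genes above 0. The AZF2 call held in 10 of the 14 alternatives and the AZF3 call in 7. AT3G53600, placed in the group by its locus code, stood at 0.46, 0.50 and 0.37 and rose by 0.44 ± 0.066 (limma adjusted p = 0.0479). This gene was the dimmest of those called. Its log2 intensity was 6.43, 6.84 and 7.04 in tdt-1, against 5.97, 6.34 and 6.67 in wild type, so the genotypes overlapped across arrays. Its mean was 0.24 with median centring (limma adjusted p = 0.445) and 0.80 in the deposited series table or by the scanner log ratio, and the call held in 8 of the 14 alternatives.

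The third AZF gene, AZF1 (ZF1), lay on the other side of 0, at −0.46, −0.70 and −1.21, and its mean was −0.79 ± 0.38 (limma adjusted p = 0.0580). ZAT6, which has a part in phosphate homeostasis and root growth, had ratios of 0.63, 0.66 and 0.25 (limma adjusted p = 0.0668), above 0 on every array but lowest on replicate 3. AT2G28200 stood at −0.45, −0.51 and −0.90 (limma adjusted p = 0.0520) and AT2G28710 at −0.40, −0.24 and −1.02 (limma adjusted p = 0.120), both below 0 throughout. ZAT7, linked to salt tolerance, had ratios of −0.31, −0.18 and −0.44, while its neighbour on the chromosome AT3G46080 had 0.22, 0.017 and 0.20. The 11 members that did not pass had means between −0.79 and 0.51, so the group held genes on either side of 0.

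**Figure D2:**
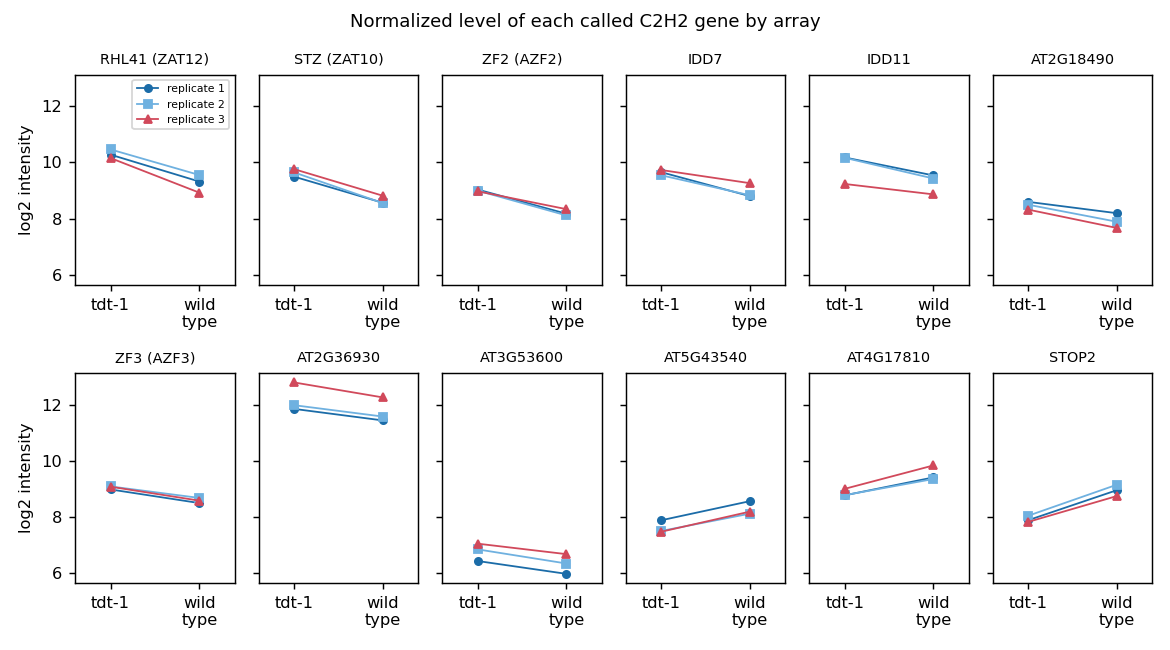
Normalized log2 intensity (y axis) of the 12 called C2H2 genes in tdt-1 (left) and wild type (right), with a line joining both genotypes of each array. For RHL41 the tdt-1 values of 10.28, 10.46 and 10.15 lie above the wild-type values of 9.32, 9.55 and 8.92, and for STOP2 all 3 lines run the other way.

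Members of the IDD family are transcription factors with several fingers, which work with GRAS proteins such as SHORT-ROOT, SCARECROW and the DELLA repressors. The list used here held 15 members and may not cover the whole family. All 15 were tested: 2 rose, none fell and 13 did not pass, a share of calls at the 13.3% of all tested loci. The median of the 15 was 0.070, with 0.26 and 0.25 on replicates 1 and 2 and −0.12 on replicate 3.

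IDD7 had ratios of 0.85, 0.71 and 0.47 and a log2 intensity of 9.65, 9.54 and 9.73 in tdt-1, against 8.80, 8.83 and 9.26 in wild type. It rose by 0.68 ± 0.19, or 1.60-fold (limma adjusted p = 0.0372), with no overlap between the genotypes. IDD11 had ratios of 0.64, 0.74 and 0.37 and rose by 0.58 ± 0.19 (limma adjusted p = 0.0465). Its log2 intensity was 10.18, 10.16 and 9.23 in tdt-1, against 9.54, 9.43 and 8.86 in wild type, so that the genotypes overlapped across arrays while each array put tdt-1 higher.

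Several other IDD genes were above 0 on every array without passing the test. AT3G45260 stood at 0.56, 0.80 and 0.36 (limma adjusted p = 0.0527), and AT1G14580, described on the array as similar to maize ID1, at 0.37, 0.48 and 0.30 (limma adjusted p = 0.0644). IDD2, known to bind DELLA proteins, had 0.51, 0.52 and 0.091 (limma adjusted p = 0.126). The mean of AT3G45260, 0.58 ± 0.22, was close to that of IDD11, at 0.58 ± 0.19.

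Other IDD genes lay below 0. MGP, or Magpie, whose transcription depends on SHORT-ROOT and SCARECROW, stood at −0.49, −0.74 and −1.54, the lowest mean of the listed members (−0.93 ± 0.55, limma adjusted p = 0.0730). JKD, or Jackdaw, which holds SHORT-ROOT in the endodermis, had −0.094, −0.15 and −0.43 (limma adjusted p = 0.230), and NUC, or nutcracker, had −0.12, −0.30 and −0.44 (limma adjusted p = 0.140). All 3 were below 0 on every array, but none passed. SGR5, which is needed for shoot gravitropism, split by array at 0.74, 0.66 and −0.33, with replicates 1 and 2 above 0 and replicate 3 below.

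Within the pair of neighbouring genes IDD5 and IDD4, IDD5 had 0.26, 0.34 and −0.12 and IDD4 −0.028, −0.13 and −0.60. IDD1, or ENHYDROUS, a regulator of seed maturation, stood at 0.28, 0.25 and −0.32, and its mean of 0.07 changed sign with the dye term and without replicate 1 or 2. IDD12, IDD14 and IDD16 had means of −0.088, −0.17 and −0.21, none of which passed.

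Of the GRAS proteins that bind IDD proteins, all 7 listed were tested, and 1 fell. This was the DELLA gene RGA (RGA1), at −0.53, −0.57 and −0.74 with a mean of −0.61 ± 0.11 (limma adjusted p = 0.0329), where 5.97% of all loci fell. SHORT-ROOT (SHR) stood at −0.076, 0.033 and −0.57 and SCARECROW (SCR) at −0.71, −0.52 and 0.16 (limma adjusted p = 0.272), neither with a call. Their signs differed between arrays.

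**Figure D3:**
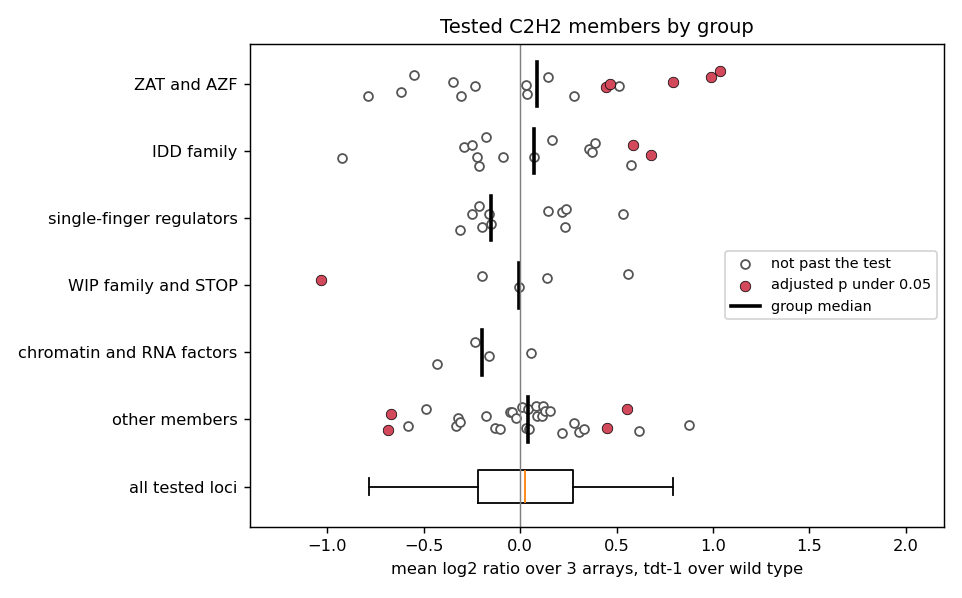
Mean log2 ratio over 3 arrays (x axis) of each of the 82 tested C2H2 genes by group, with called genes filled, group medians as bars, and all 20484 tested loci as a box (quartiles, with whiskers at the 5th and 95th percentiles). The ZAT and AZF group holds 5 filled points, all to the right of 0, and the lowest point of the plot is STOP2 at −1.03.

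STOP2 (AT5G22890) was the lowest C2H2 gene. It is the close relative of STOP1, the transcription factor that protects roots from protons and aluminium, and shares part of its targets. STOP2 had a log2 intensity of 7.88, 8.04 and 7.82 in tdt-1, against 8.95, 9.15 and 8.74 in wild type, with ratios of −1.07, −1.11 and −0.92. The groups did not overlap, and STOP2 fell by 1.03 ± 0.097, a 2.05-fold change (limma adjusted p = 0.0180). STOP1 itself had ratios of 0.27, 0.12 and 0.022 with a mean of 0.14 ± 0.12 and no call (limma adjusted p = 0.365).

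All 5 listed genes that STOP1 activates were tested and none passed. ALS3, a transporter for aluminium tolerance, stood at 1.04, 0.97 and 0.22 (limma adjusted p = 0.0823), and PGIP1, a polygalacturonase inhibitor, at 0.39, 0.34 and 0.55 (limma adjusted p = 0.0575). Both lay above 0 on every array, on the side opposite to STOP2. ALMT1, the malate channel, had ratios of 1.25, 0.77 and −0.50 and PGIP2 of 0.48, 0.82 and −0.95, above 0 on replicates 1 and 2 and below it on replicate 3. AT1G51340 lay near 0, at 0.032, 0.05 and −0.027.

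Of the WIP proteins, a plant group with a conserved amino-terminal motif, 3 of 6 were tested and none passed. NTT, or WIP2, which is needed for the transmitting tract of the ovary, had ratios of 0.15, 0.60 and 0.92 (limma adjusted p = 0.107). WIP4, which acts with NTT in the founding of the root, stood at −0.061, −0.20 and −0.33, and WIP3 at −0.095, 0.13 and −0.051, on either side of 0. NTT was above 0 on all arrays and WIP4 below 0 on all. TT1, which controls pigment in the seed coat, DOT5 and WIP5 were too dim to be tested.

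The group of single-finger regulators of organs and hairs had no member past the test among 11 tested of 18, by limma. Of the 11, 3 had an unadjusted p under 0.05, as did 35.1% of all loci. The group median was −0.15, with −0.034, 0.023 and −0.22 on replicates 1, 2 and 3. ZFP5, which acts early in trichome formation, had the highest mean, at 0.19, 0.43 and 0.99 (limma adjusted p = 0.125). GIS and ZFP8, which act in the same pathway on shoots and inflorescences, stood at 0.028, 0.13 and 0.54 and at 0.10, 0.12 and 0.44. These 3 trichome regulators were above 0 on every array and highest on replicate 3, whereas ZFP6 of the same pathway had −0.05, −0.21 and −0.22.

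ZFP3, which dampens abscisic acid signalling during germination, was the member with the smallest p, at −0.31, −0.28 and −0.35 (limma adjusted p = 0.0824). Its spread between arrays was small, as was its mean of −0.31 ± 0.032. NUB, a regulator of lateral organs, had −0.31, −0.18 and −0.26, and ZFP2 −0.21, −0.18 and −0.25, both below 0 throughout. RBE, a petal regulator, met the filter through wild type alone, as its tdt-1 signal was not well above background on any array, and it had no call (limma adjusted p = 0.374). Without any tested value were SUP, KNU and JAG, all floral or organ regulators, together with GIS2, TAC1, ZFP1 and ZFP11.

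Chromatin and RNA factors with C2H2 fingers showed small ratios, and none of the 4 tested passed limma's test. Of the 4, 1 had an unadjusted p under 0.05, as did 35.1% of all loci. SUF4, which activates the flowering repressor FLC together with FRIGIDA, stood at −0.59, −0.55 and −0.15 (limma adjusted p = 0.0984). The histone demethylases REF6 and ELF6, which remove the mark set by Polycomb proteins, had −0.29, −0.32 and −0.08 and −0.14, −0.035 and −0.30. These 3 genes were below 0 on every array. TFIIIA, the factor for transcription of the smallest ribosomal RNA, lay on either side of 0 depending on the array, at −0.15, −0.22 and 0.54.

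Some further chromatin factors lay among the remaining members, and none of them passed. HD2C, a plant histone deacetylase, stood at 0.027, 0.26 and 0.18, SUVR5, a histone methyltransferase, at 0.14, 0.21 and −0.076, and YY1, a relative of the animal Yin Yang factor, at −0.32, −0.29 and 0.072. Of the corepressors and deacetylases through which C2H2 repressors act, all 8 listed were tested, and 1, the TOPLESS relative TPR1, fell, where 5.97% of all loci fell. It had ratios of −0.72, −0.54 and −0.45 and a mean of −0.57 ± 0.14 (limma adjusted p = 0.0396). TPR2 stood at −0.40, −0.35 and −0.45 (limma adjusted p = 0.0551), and TPL, that is TOPLESS itself, at 0.08, 0.16 and 0.077 (limma adjusted p = 0.424). The list's median was −0.25.

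Outside these groups 31 of 55 members were tested, of which 2 rose, 2 fell and 27 did not pass, a share of calls near the 13.3% of all tested loci. AT2G18490 rose by 0.56 ± 0.13, with ratios of 0.40, 0.61 and 0.65 and a log2 intensity of 8.47 ± 0.14 in tdt-1 and 7.91 ± 0.26 in wild type (limma adjusted p = 0.0405). AT2G36930 rose by 0.45 ± 0.072, with ratios of 0.41, 0.40 and 0.53 (limma adjusted p = 0.0478). Its mean was 0.75 with median centring (limma adjusted p = 0.244), and the call held in 6 of the 14 alternatives. The files describe its product only as weakly similar to the human zinc finger protein T86. AT4G17810 fell by 0.68 ± 0.13, at −0.64, −0.58 and −0.83, with a log2 intensity of 8.85 ± 0.13 in tdt-1 and 9.53 ± 0.26 in wild type (limma adjusted p = 0.0302). AT5G43540 fell by 0.67 ± 0.05, at −0.68, −0.62 and −0.72, with 7.88, 7.50 and 7.47 in tdt-1 and 8.56, 8.12 and 8.19 in wild type (limma adjusted p = 0.0250). In both genes that fell, every tdt-1 value lay below the wild-type value of its array.

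Some members of known function outside the groups are given for their values alone. MBS1 (AT3G02790) and MBS2 (AT5G16470), which relay the singlet oxygen signal from plastids, had −0.69, −0.77 and −0.0068 and −0.45, −0.46 and −0.058. Both were below 0 on every array, with replicate 3 the nearest to 0, and neither passed (limma adjusted p = 0.152 for MBS1 and 0.152 for MBS2). REIL2 (FZF) and REIL1 (AT4G31420), needed for the late maturation of the large ribosomal subunit in the cytosol, stood at 0.09, 0.13 and 0.70 and 0.31, 0.10 and −0.28. REIL2 was above 0 on every array, most on replicate 3, while REIL1 was below 0 on replicate 3 alone. PUX2, an adaptor with a UBX domain, had −0.23, −0.32 and −0.44 (limma adjusted p = 0.0893).

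The arrays differed in what they showed for many C2H2 genes. Across the 82 genes the ratios of replicates 1 and 2 had a correlation of 0.94, and those of replicate 3 had 0.59 with replicate 1 and 0.67 with replicate 2. Over all 20484 loci the figures were 0.94, 0.53 and 0.57. These are correlations across genes, which are no independent replicates, and replicates 1 and 2 share dye orientation, array layout and scan day. In replicate 3 dye orientation, layout and scan day changed together and cannot be told apart.

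A term for the difference between both dye orientations passed for 32 of the 82 genes, or 39.0%, beside 44.6% of all loci (limma, adjusted p under 0.05). The term was tested with 1 residual degree of freedom, on the spread between replicates 1 and 2. Replicate 3 was higher in 14 of the 32, by 0.33 to 1.82, and lower in 18, by up to 1.03 on the log2 scale. None of the 12 called genes was among them. This follows in part from how they were called, as the test over the same arrays favours genes whose ratios agree.

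AT1G26590 differed most between arrays, with 0.23 and 0.31 on replicates 1 and 2 and 2.09 on replicate 3. Its log2 intensity was low in wild type, at 6.54, 6.56 and 5.95, against 6.77, 6.87 and 8.04 in tdt-1. AT1G26610, a member 1 gene away from it, had −0.25, −0.17 and 0.46, likewise highest on replicate 3. The next widest gaps were those of SGR5, given above, and of AT5G10970, at −0.21, −0.30 and −1.23. AT4G16610 stood at 0.43, 0.28 and 1.14 (limma adjusted p = 0.114), above 0 on every array and again highest on replicate 3. None of these genes passed the test over the 3 arrays.

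**Figure D4:**
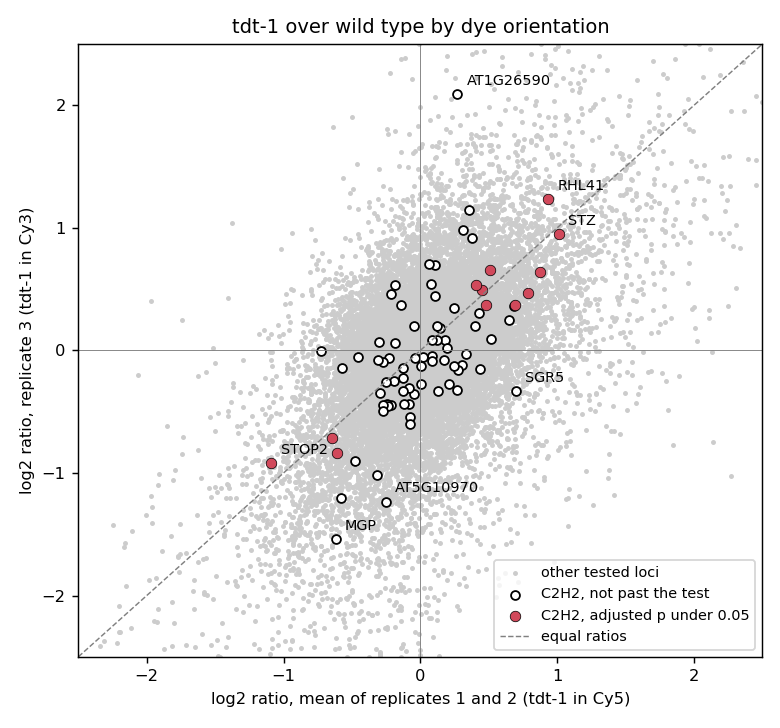
Log2 ratio of tdt-1 over wild type on replicate 3 (y axis) against the mean of replicates 1 and 2 (x axis) for the 82 tested C2H2 genes (circles, called genes filled) and the other tested loci (grey), with a dashed line where both are equal. The axes end at 2.5 on either side, which leaves out 247 loci, none of them C2H2. AT1G26590 lies far above the dashed line, at 2.09 on replicate 3, and the called genes lie near it.

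The same sign on all 3 arrays was found for 58 of the 82 genes, or 70.7%, beside 58.9% of all loci, with 29 above 0 and 29 below. Too few neighbouring members were tested to judge whether they share a direction. Of 7 pairs of C2H2 genes that lie side by side or 1 gene apart in the reference gene order, 3 had both members tested, and in 1 of these both means had the same sign. The 5 probes of highest mean brightness belonged to AT5G16470, AT2G36930, STOP1, IDD1 and AT1G75710, at means between −0.32 and 0.45. AT1G75710 had ratios of 0.34, 0.21 and −0.16, and AT2G36930 was the member of these 5 past the test.

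The 36 C2H2 loci that were not tested had ratios between −0.66 and 0.70 on single arrays. In 18 of them tdt-1 was not well above background on any array, and in 6 of the 18 neither was wild type. The 36 included DAZ1, DAZ2 and DAZ3, which act in the male germline, the floral genes SUP and KNU, and URO. AT5G52010 lacked replicate 3, where its spot was set aside as non-uniform. In 16 of the 36 wild type was well above background on 2 arrays. DAZ2 was so in both genotypes, with ratios of 0.32, 0.61 and 0.12, so not every untested member was dim throughout. For members dim in both genotypes these arrays give no measure of a difference between the genotypes.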

How the data were processed

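Per the labels, total RNA of whole seedlings was amplified linearly, labelled with Cy3 or Cy5 and hybridized to 2-colour Agilent arrays. The deposited scanner files hold spot intensity values on a linear scale, from Agilent Feature Extraction 8.5.1.1 (replicates 1 and 2) and 9.1.3.1 (replicate 3), per the file headers. They also hold a log10 ratio of Cy5 over Cy3 and 0 or 1 flags, per the file headers. Values of the deposited series table are log2, tdt-1 over wild type, and equal those scanner ratios after turning replicate 3.

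Background was corrected with normexp (offset 50) in limma 3.58.1, and within-array loess, in which control spots had weight 0, gave ratios whose sign was then turned for replicate 3. Non-uniform spots (16, 11 and 81 on replicates 1, 2 and 3) were left out. A locus is represented by its brightest tested probe. The mean ratio was tested against 0 with lmFit and eBayes, after a test on simulated data whose spread was taken from these arrays. Of 100 genes given a log2 change of 1 in the simulated data 25 passed, and of 100 given a change of 2 63 passed. A gene that did not pass is therefore not shown to be unchanged. No unchanged gene was called in the simulated data. Errors there were drawn independently for each array, while replicates 1 and 2 share dye orientation, array layout and scan day. The lack of false calls there thus gives no rate of false calls for the real arrays. Levels of each genotype are log2 intensities after Aquantile scaling. Precision is limited by how few arrays there are. The design text calls the replicates biological without saying what was separate between them, and p-values measure only the spread between these arrays. Between 65.2% and 69.4% of noncontrol spots were well above background in tdt-1, against 69.4% to 79.7% for wild type. The threshold for that flag differed between both software versions. Its multiplier was 2.6 for replicates 1 and 2 and 13 for replicate 3, per the file headers.

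The members and lists were chosen with earlier results of these data known. Lists were matched by locus code, and 9 members joined a group by code alone. Names follow the reference table (assembly TAIR10.1, names and gene order only) and the array descriptions. Genes named by rule were those past the test, the smallest p of each group without one, the 5 brightest, the 3 with the widest gap between dye orientations, and the 2 smallest p of each partner or target list. Other members were chosen after their values were seen. Alternatives covered background, normalization, filters, probe choice, dye term, array weights, variance model, the deposited table and leaving out each array. No sequences are shown, as the reference used here holds names only.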

Additional observations from a re-analysis of the deposited data

How the results depend on the processing

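The counts of called genes moved widely with the setting, for C2H2 genes and for all loci alike. C2H2 genes higher and lower in tdt-1 numbered 9 and 3, against 34 and 30 with array weights, 25 and 29 once a dye term was fitted, 0 and 0 with median centring or with replicates 1 and 2 averaged, and 0 to 28 and 0 to 25 with 1 array left out. By limma 33 C2H2 genes, or 40.2%, had an unadjusted p under 0.05 as reported, beside 35.1% of all loci. With median centring there were 17, and with those replicates averaged 16. With no background correction 4 rose, and with the scanner log ratio or the deposited series table, which hold the same values, 8 fell. Of all loci 1508 rose and 1222 fell, against 8170 and 6710 with array weights, 6941 and 6260 once a dye term was fitted, 1 and 0 with median centring, 24 and 19 with replicates 1 and 2 averaged, and 66 to 7002 and 45 to 5463 with 1 array left out. The dye term and the fit without replicate 3 take their spread from replicates 1 and 2, and array weights gave replicate 3 a weight of 0.11. The C2H2 median was −0.026 with median centring. All 12 called C2H2 genes were called with no filter on dim probes, with both genotypes required above background and with probes averaged, and 10 of them with trend and robust eBayes. IDD1 changed sign, to −0.028 with the dye term or with replicates 1 and 2 averaged and to −0.034 and −0.021 without replicate 1 and without replicate 2, against 0.27 without replicate 3. The test was itself the paired analysis, because each array pairs tdt-1 with wild type in its ratio.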
